A study of Mus musculus with 24 samples.

Results

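The Hippo pathway ends on a small set of nuclear factors, and 10 of its genes were followed here through the 25229 gene symbols of the count table. They were chosen by symbol and comprised the coactivators Yap1 and Wwtr1 (TAZ), the 4 DNA-binding partners Tead1, Tead2, Tead3 and Tead4, and 4 genes that YAP and TEAD are known to switch on, Ankrd1, Amotl2, Ajuba and Lats2. RNA was sequenced from ID8 P53 KO cells, a mouse ovarian cancer line of surface epithelial origin that lacks p53 in all groups, kept in culture for 6 days under 1 of 4 treatments with 6 replicates each. The groups received DMSO (the solvent), AU-15330 at 2.5 uM, cisplatin at 750 nM, or both drugs together (the combination). AU-15330 is a PROTAC, a molecule that marks the SWI/SNF chromatin remodeling ATPases SMARCA4 and SMARCA2 for destruction, and cisplatin is a platinum drug that crosslinks DNA. The cisplatin concentration is the one in the sample labels, and the study's methods name a different one. AU-15330 acts on protein, so transcript levels of its targets do not check the treatment labels. The labels do not say whether replicates were separate cultures, so p-values measure the spread between these libraries, which may be technical.

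YAP and TAZ carry no DNA-binding domain and reach their targets through TEAD proteins, often at enhancers shared with AP-1. When the kinases LATS1 and LATS2 phosphorylate YAP and TAZ, these stay in the cytoplasm or are degraded, and TEAD targets fall silent. Several targets feed back on the pathway: LATS2 and the angiomotins restrain YAP, whereas AJUBA, a LIM-domain scaffold, holds LATS at cell junctions. Much of this control acts on protein and on its place in the cell, which transcript counts do not measure.

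Libraries held 17592588 to 25260009 counts, and 3 counts in a library correspond to 0.120 to 0.186 CPM, the counts scaled to library size. As a floor this allows for counting error alone. The 7 epithelial and mesothelial markers fixed for ID8 cells (Krt7, Krt8, Krt18, Krt19, Wt1, Msln and Upk3b) were all measured, with a summed level of 3512 to 5308 CPM in DMSO libraries. All 7 fell with AU-15330, alone or on top of cisplatin, and their sum was 1018 to 1150 CPM in AU-15330 libraries, 4174 to 4851 in cisplatin libraries and 1222 to 1403 in combination libraries. Krt19 fell furthest among them with AU-15330, with a log2 difference of -7.99. Markers of leukocytes and endothelium (Ptprc, Cd3e, Adgre1, Pecam1 and Cdh5) summed to 2.87 to 4.23 CPM in DMSO, 0.365 to 0.810 in AU-15330, 8.51 to 12.5 in cisplatin and 0.483 to 1.25 in combination libraries. Of these only Pecam1 was high enough to test, and each of the other 4 had at most 5 counts in any library. The part of these shifts in the results below was not tested, and in bulk RNA fewer cells of a kind cannot be told apart from less RNA per cell.

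The short sequence that TEAD proteins bind, GGAATG on one strand and CATTCC on the other, was searched in the promoters of the member genes, since TEAD proteins are known to bind near some of their targets' starts. Enhancers farther away lie outside these windows. Windows ran from 250 bases before to 30 bases after each RefSeq transcription start on GRCm38.p6, the build of the deposited counts (mm10). The letters occurred in 13.9% of all 32851 windows and in 11.7% of the 13027 windows of tested genes. By gene they occurred in 15.8% of the 27025 genes with a window, counting a gene if any of its windows held them. Tead3 had 3 windows, and Wwtr1 and Lats2 had 2 each. Among members, 8 genes had a window and 7 of them held the motif, all but Tead2, while Tead1 and Tead4 were not analysed here for promoters. A list of other YAP/TEAD targets held it in 4 of 12 genes. The 4 target promoters are printed on the strand of the gene, 5′ to 3′, with the TEAD letters in capitals. The Ankrd1 window is chr19:36119815-36120094 (minus strand), with matches whose first base lies at -210 and -123 from the start. The Amotl2 window is chr9:102717554-102717833 (plus strand), with 1 match at -65. The Ajuba window is chr14:54577632-54577911 (minus strand), with matches at -186 and -164. Lats2 has a window with no match, and the one printed, chr14:57746094-57746373 (minus strand), has its match starting at base 5 of the transcript.
Ankrd1: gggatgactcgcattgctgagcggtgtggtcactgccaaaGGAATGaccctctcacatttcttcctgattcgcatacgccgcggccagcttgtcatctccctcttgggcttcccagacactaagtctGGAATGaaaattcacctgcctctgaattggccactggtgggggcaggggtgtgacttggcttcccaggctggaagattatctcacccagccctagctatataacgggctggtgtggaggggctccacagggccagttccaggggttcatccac
Amotl2: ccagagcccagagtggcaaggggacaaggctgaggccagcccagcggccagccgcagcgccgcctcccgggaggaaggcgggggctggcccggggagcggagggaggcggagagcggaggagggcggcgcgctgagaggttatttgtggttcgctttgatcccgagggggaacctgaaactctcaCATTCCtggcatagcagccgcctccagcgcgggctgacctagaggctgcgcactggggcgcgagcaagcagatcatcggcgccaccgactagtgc
Ajuba: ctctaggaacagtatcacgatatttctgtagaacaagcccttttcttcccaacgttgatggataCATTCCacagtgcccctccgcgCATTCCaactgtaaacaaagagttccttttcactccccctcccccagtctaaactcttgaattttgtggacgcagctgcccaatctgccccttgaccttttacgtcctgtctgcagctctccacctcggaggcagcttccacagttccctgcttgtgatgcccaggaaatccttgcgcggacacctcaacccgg
Lats2: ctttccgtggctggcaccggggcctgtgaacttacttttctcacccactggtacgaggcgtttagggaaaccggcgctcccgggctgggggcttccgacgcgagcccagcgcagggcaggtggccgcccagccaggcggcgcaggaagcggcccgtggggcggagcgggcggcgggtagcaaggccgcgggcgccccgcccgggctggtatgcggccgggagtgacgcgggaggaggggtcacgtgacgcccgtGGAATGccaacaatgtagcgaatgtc
No member window held the AP-1 letters TGANTCA, which occurred in 7.46% of all windows. These matches are letters in a window, and no binding was measured here.

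To compare genes, levels were set per kilobase of a gene's annotated exons, merged over all its transcripts. Which transcripts were in use was not measured, so the order of genes and their shares depend on this length. A ± on a group value is the SD, with n = 6 here and for each group value that follows. In DMSO libraries the level was highest for Wwtr1 at 51.4 ± 6.46 CPM per kb. Amotl2 followed at 46.2 ± 4.76, Ankrd1 at 34.3 ± 9.11, Ajuba at 25.7 ± 1.90, Yap1 at 19.7 ± 2.38, Tead1 at 12.6 ± 3.08 and Lats2 at 8.41 ± 1.52 CPM per kb. Tead3 at 3.26 ± 0.507 and Tead4 at 2.88 ± 0.560 CPM per kb were low, and Tead2 was near 0. Neighbors in this order whose libraries overlapped were Wwtr1 and Amotl2, Amotl2 and Ankrd1, Ankrd1 and Ajuba, Tead1 and Lats2, and Tead3 and Tead4. The order changed with treatment, mainly through Ankrd1. It stood at 10.2 ± 5.03 CPM per kb in AU-15330 libraries, with a mean below those of Yap1 (24.7), Lats2 (19.5), Tead1 (15.2) and Ajuba (15.2). Its AU-15330 libraries ran from 5.45 to 18.8 CPM per kb and overlapped those of Lats2 (16.9 to 21.3), Tead1 and Ajuba. Ankrd1 stood at 72.2 ± 11.2 in cisplatin and 69.9 ± 21.2 in combination libraries, the highest mean of the members in both. Tead1 made up 66.8% ± 3.96 of the summed TEAD level per kb in DMSO, 71.3% ± 1.87 in AU-15330, 75.3% ± 2.06 in cisplatin and 77.8% ± 2.93 in combination libraries. The ratio of Wwtr1 to Yap1 per kb was 2.62 ± 0.304 in DMSO, 2.14 ± 0.214 in AU-15330, 2.92 ± 0.163 in cisplatin and 2.06 ± 0.165 in combination libraries.

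**Figure D1:**
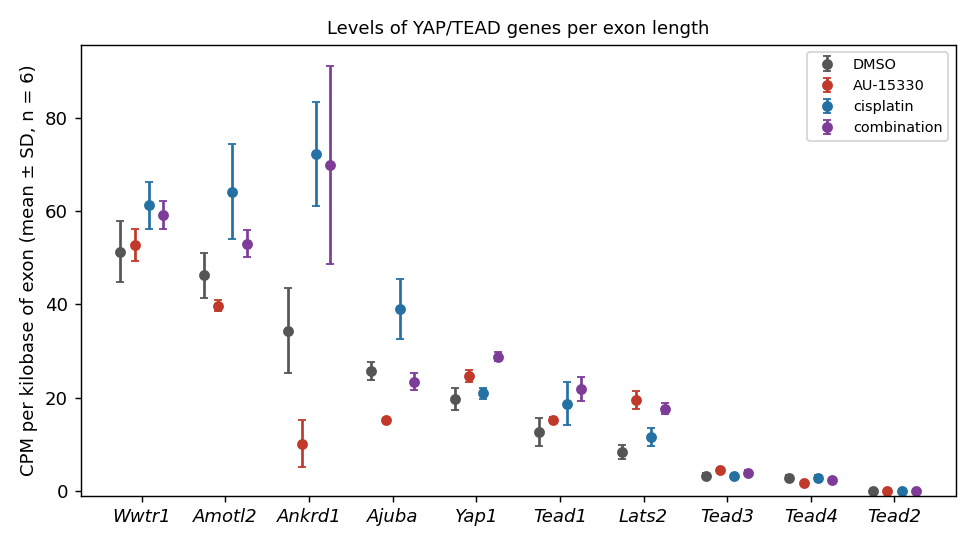
Level of each member per kilobase of exon (CPM per kb, linear axis) by treatment, with points at the mean and bars of 1 SD over 6 libraries. Ankrd1 moves from a mean of 34.3 CPM per kb in DMSO to 10.2 in AU-15330, 72.2 in cisplatin and 69.9 in the combination, whereas Wwtr1 stays between 51.4 and 61.3.

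Of the coactivators, Yap1 (chromosome 9, 7931999 to 8004596, minus strand) rose with AU-15330. Its level ran from 161 to 211 CPM in DMSO libraries (median 175) and from 217 to 243 CPM in AU-15330 libraries (median 227). It ran from 177 to 204 CPM with cisplatin (median 199.8) and from 254 to 277 CPM with the combination (median 266). Thus every AU-15330 library lay above every DMSO library, and every combination library above every cisplatin library. The log2 difference was 0.32 ± 0.0664 (SE) for AU-15330 against DMSO (adjusted p = 0.000110, edgeR's quasi-likelihood test, as for all adjusted p-values here) and 0.46 ± 0.0663 for the combination against cisplatin (adjusted p = 1.01e-06). These are modest sizes, since 66.2% and 49% of tested genes differed by more in the same comparisons. Cisplatin alone left a log2 difference of 0.09 that did not pass (adjusted p = 0.277), though it passed when libraries were scaled by total counts (0.16, adjusted p = 0.0272).

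Wwtr1 (chromosome 3, 57455649 to 57575910, minus strand), which encodes TAZ, rose with cisplatin and showed no change past the threshold with AU-15330. Its level was 211 to 287 CPM in DMSO (median 240.3), 241 to 284 CPM in AU-15330 (median 246), 257 to 329 CPM in cisplatin (median 292) and 268 to 304 CPM in combination libraries (median 279). The groups overlapped, with 4 of 6 cisplatin libraries above every DMSO library. Against DMSO, the log2 difference was 0.26 ± 0.0738 with cisplatin (adjusted p = 0.00537) and 0.04 with AU-15330 (adjusted p = 0.653). With total-count scaling the AU-15330 difference was 0.17 and passed (adjusted p = 0.0333). On top of cisplatin, AU-15330 gave -0.05 (adjusted p = 0.544).

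The TEAD genes did not move together. Tead1 (chromosome 7, 112679318 to 112906807, plus strand), the most abundant of them, ran from 134 to 234 CPM in DMSO (median 164), 198 to 220.2 CPM in AU-15330 (median 207), 174 to 328 CPM in cisplatin (median 272) and 253 to 342 CPM in combination libraries (median 286). It rose with cisplatin by 0.57 ± 0.143 on the log2 scale (adjusted p = 0.00162), with 4 of 6 libraries above all DMSO libraries, and in the combination against AU-15330 by 0.52 ± 0.142 (adjusted p = 0.00456), where the groups did not overlap. On top of cisplatin, AU-15330 gave 0.22 ± 0.142 (adjusted p = 0.165), with overlapping groups. The difference of AU-15330 from DMSO was 0.27 ± 0.143 (adjusted p = 0.0880). It passed with total-count scaling (0.40), with a replicate block (0.30, adjusted p = 0.0425) and without replicate 6 (0.40, adjusted p = 0.0157), so the call depends on those choices.

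Tead3 (chromosome 17, 28331671 to 28350817, minus strand) rose with AU-15330 and Tead4 (chromosome 6, 128224288 to 128300823, minus strand) fell. Tead3 ran from 17.9 to 26.0 CPM in DMSO (median 22.3), 26.8 to 35.3 CPM in AU-15330 (median 28.9), 14.7 to 23.7 CPM in cisplatin (median 22.7) and 21.6 to 31.6 CPM in combination libraries (median 26.2). Tead4 ran from 7.18 to 13.2 CPM in DMSO (median 10.5), 5.58 to 6.51 CPM in AU-15330 (median 6.05), 7.55 to 12.5 CPM in cisplatin (median 10.4) and 7.44 to 9.44 CPM in combination libraries (median 8.14). For both genes AU-15330 and DMSO libraries did not overlap, whereas combination and cisplatin libraries did. Against DMSO, AU-15330 gave 0.45 ± 0.117 for Tead3 (adjusted p = 0.00116) and -0.78 ± 0.136 for Tead4 (adjusted p = 1.28e-05) on the log2 scale. On top of cisplatin the differences were 0.31 for Tead3 (adjusted p = 0.0212) and -0.31 for Tead4 (adjusted p = 0.0451). These last calls were lost without replicate 4 or 5 for Tead3, and without replicate 4, 5 or 6 or with total counts for Tead4. Cisplatin alone changed neither past the threshold, with differences of -0.05 for Tead3 and -0.01 for Tead4. Tead2 (chromosome 7, 45215753 to 45233644, plus strand), known mostly from embryonic tissue, was counted 1 to 2 times per DMSO library, 0 to 1 times with AU-15330, 2 to 5 times with cisplatin and 0 to 1 times with the combination, which is too few to test.

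Among the targets, Ankrd1 (chromosome 19, 36111961 to 36120099, minus strand), a cardiac and muscle ankyrin repeat protein gene that is a standard readout of YAP, had the largest log2 difference of the members in 3 of the 4 comparisons, all but the combination against cisplatin. Its level was 75.5 to 148 CPM in DMSO libraries (median 96.1), 15.7 to 54.2 CPM with AU-15330 (median 24.4), 172 to 249.7 CPM with cisplatin (median 211) and 142 to 302 CPM with the combination (median 191). All AU-15330 libraries lay below all others and all cisplatin libraries above all DMSO libraries, while the combination spanned the cisplatin range and its lowest library was just under the highest DMSO library. AU-15330 alone lowered it to 0.297 of the DMSO level, -1.75 ± 0.242 on the log2 scale (adjusted p = 3.98e-07). Cisplatin alone raised it 2.10-fold, 1.07 ± 0.234 (adjusted p = 0.000422). In cells given cisplatin, AU-15330 gave -0.05 ± 0.230 (adjusted p = 0.870), and the libraries of these groups overlapped.

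The 2 effects of AU-15330 on Ankrd1 thus differed, by 1.71 ± 0.332 on the log2 scale when the difference itself was tested (adjusted p = 0.000307), and 5.82% of tested genes had a larger difference. The combination stood 6.86-fold above AU-15330 alone, 2.78 ± 0.249 on the log2 scale (adjusted p = 2.75e-09), and only 0.386% of tested genes differed by more. Within each group, the libraries numbered 1 to 3 all lay above those numbered 4 to 6 for Ankrd1, in AU-15330 at 27.9 to 54.2 against 15.7 to 20.9 CPM. The labels tie these numbers to no batch. Fitted within replicates 1 to 3 and within 4 to 6, splits made after seeing this, the AU-15330 effect was -1.54 and -2.15, the cisplatin effect 1.02 and 1.12, and the difference between the effects of AU-15330 was 1.60 and 1.87, each past the threshold. The effect of AU-15330 on top of cisplatin was 0.06 in the first split and -0.28 in the other, where it passed (adjusted p = 0.0315).

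Ajuba (chromosome 14, 54567472 to 54577558, minus strand) fell with AU-15330 and rose with cisplatin, each with and without the other drug. It ran from 83.6 to 101 CPM in DMSO (median 94.1), 52.8 to 57.0 CPM in AU-15330 (median 55.4), 119 to 168 CPM in cisplatin (median 139.8) and 77.8 to 96.4 CPM in combination libraries (median 86.6). In each of the 4 comparisons the groups did not overlap. AU-15330 lowered it to 0.589 of DMSO (-0.76 ± 0.0840, adjusted p = 8.29e-09) and to 0.602 of cisplatin (-0.73 ± 0.0832, adjusted p = 1.80e-08). Cisplatin raised it 1.52-fold over DMSO (0.60 ± 0.0831, adjusted p = 1.28e-06) and 1.55-fold over AU-15330 (0.63 ± 0.0838, adjusted p = 1.29e-06). The difference between the effects of AU-15330 was 0.03 ± 0.118 (adjusted p = 0.868).

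Amotl2 (chromosome 9, 102716672 to 102733418, plus strand), an angiomotin family member that binds YAP, moved in the same directions with smaller steps. Its level was 247 to 331 CPM in DMSO (median 296), 242 to 262 CPM in AU-15330 (median 248), 279 to 455 CPM in cisplatin (median 424) and 306 to 354 CPM in combination libraries (median 332). Of the cisplatin libraries, 5 of 6 lay above every DMSO library, and the combination lay wholly above AU-15330. Cisplatin gave 0.47 ± 0.0876 against DMSO (adjusted p = 6.74e-05), and the combination gave 0.42 ± 0.0876 against AU-15330 (adjusted p = 0.000437). AU-15330 gave -0.22 ± 0.0876 against DMSO (adjusted p = 0.0275) and -0.27 ± 0.0874 on top of cisplatin (adjusted p = 0.00731), with overlapping groups. The first of these was lost with total-count scaling (-0.09, adjusted p = 0.348) and without replicate 2, 3, 4 or 6 (-0.21 to -0.17).

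Lats2 (chromosome 14, 57689662 to 57758388, minus strand), the kinase that phosphorylates YAP and TAZ and is itself a YAP target, went the other way with AU-15330. It ran from 43.4 to 70.7 CPM in DMSO (median 58.5), 118 to 148 CPM in AU-15330 (median 141), 63.9 to 93.9 CPM in cisplatin (median 85.7) and 108 to 129 CPM in combination libraries (median 126). All AU-15330 and combination libraries lay above all DMSO and cisplatin libraries. AU-15330 raised it 2.32-fold over DMSO (1.21 ± 0.111, adjusted p = 2.73e-10) and 1.52-fold over cisplatin (0.61 ± 0.110, adjusted p = 2.48e-05). The effect was smaller in the presence of cisplatin, by -0.61 ± 0.155 on the log2 scale (adjusted p = 0.00376). Cisplatin raised Lats2 over DMSO by 0.46 ± 0.110 (adjusted p = 0.000992) and left it at -0.14 against AU-15330 alone (adjusted p = 0.314). Lats2 shares 2955 exon bases with Gm49361 on the same strand in GENCODE vM21, a gene that has no row in the count table, so how such reads were assigned is uncertain.

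**Figure D2:**
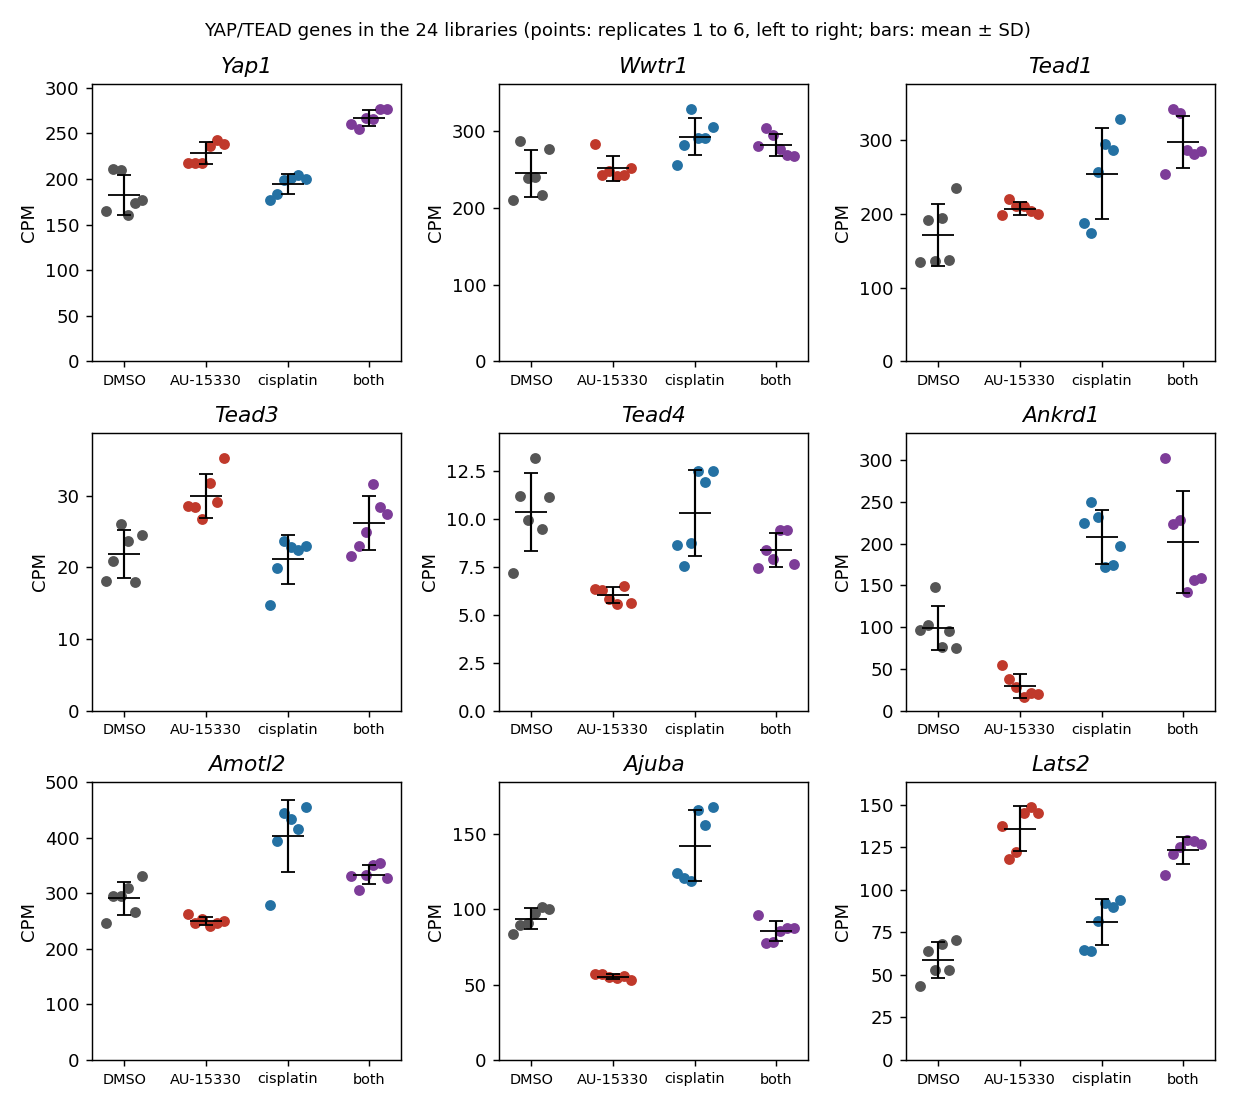
Level of each member in every library (CPM, 1 point per library in the order of replicate numbers, bars at the mean with 1 SD, a vertical axis from 0 for each gene) for the 9 tested members and the 4 treatments, with the combination marked as both. Ajuba steps down with AU-15330 and up with cisplatin, Lats2 is at 108 CPM or more in every library that received AU-15330, and Ankrd1 is at 15.7 to 54.2 CPM with AU-15330 alone but 142 to 302 CPM with the combination.

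Set against all 12941 tested genes, of which 9 were members since Tead2 was too low, the AU-15330 response of the members was mixed. With AU-15330 against DMSO, 3 members rose (Yap1, Tead3 and Lats2), where 36.2% of all tested genes rose, and 4 fell (Tead4, Ankrd1, Amotl2 and Ajuba), where 37.2% fell. With total-count scaling Wwtr1 and Tead1 also rose and Amotl2 no longer passed, where 5618 of all tested genes rose and 3973 fell. With so large a background, these shares are not a result about the members. Their median log2 difference was 0.04, beside -0.0030 over all tested genes. On top of cisplatin, 3 members rose (Yap1, Tead3 and Lats2, against 35.4% of tested genes) and 3 fell (Tead4, Amotl2 and Ajuba, against 32.7%), with a median of -0.05 beside 0.04.

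With cisplatin, the members that passed all rose. Against DMSO, 6 of 9 rose (Wwtr1, Tead1, Ankrd1, Amotl2, Ajuba and Lats2) where 26% of tested genes rose, and 0 fell where 25.7% did. The median was 0.46, beside -0.0041 over all tested genes. In the combination against AU-15330, 6 of 9 rose (Yap1, Tead1, Tead4, Ankrd1, Amotl2 and Ajuba) where 22.2% of tested genes rose, and 0 fell where 19.5% did, with a median of 0.42 beside 0.0062. In both comparisons edgeR also found 0 lower members at an unadjusted p under 0.05, and DESeq2 called 0. Replicates 4 to 6 fitted alone called 1 member lower in the combination against AU-15330, Lats2 (-0.22, adjusted p = 0.0292), where 2945 of 12985 tested genes were lower. The comparisons that share libraries, such as AU-15330 against DMSO and the combination against AU-15330, are not independent of each other. For the difference between the effects of AU-15330 with and without cisplatin, 1 member was higher (Ankrd1, with 17.9% of tested genes) and 1 lower (Lats2, with 15.8%). For Tead4 that difference was 0.48 ± 0.190 (adjusted p = 0.0542), and it passed with a replicate block (0.47, adjusted p = 0.0333) and without replicate 1 (0.54, adjusted p = 0.0242). For the other 6 it was between -0.14 and 0.14 and did not pass.

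Fitted within replicates 1 to 3 alone, 13 member calls were lost with no change of direction, whereas replicates 4 to 6 alone, the same number of libraries, lost 0 calls. Calls over all tested genes were also fewer in replicates 1 to 3, so the losses are not read as particular to the members. With cisplatin against DMSO, 3360 genes rose with all replicates, 2319 of 13008 tested in replicates 1 to 3 and 3423 of 12985 in replicates 4 to 6, and in the combination against AU-15330 the counts were 2873, 1483 and 2509. Replicates 1 to 3 gained 2 calls, both of Tead1, for AU-15330 against DMSO (0.44, adjusted p = 0.0435) and for the combination against cisplatin (0.56, adjusted p = 0.0150). With all replicates the latter difference was 0.22 and did not pass. In replicates 4 to 6 Tead1 ran from 280 to 287 CPM with the combination and from 286 to 328 CPM with cisplatin. Replicates 4 to 6 gained 3, Yap1 for cisplatin against DMSO (0.23, adjusted p = 0.00335) and the Ankrd1 and Lats2 calls given above. The lost calls follow by comparison. For AU-15330 against DMSO they were Yap1 (0.16, adjusted p = 0.214), Tead3 (0.36, adjusted p = 0.0776) and Amotl2 (-0.14, adjusted p = 0.412). For cisplatin against DMSO they were Wwtr1 (0.23, adjusted p = 0.180), Tead1 (0.41, adjusted p = 0.0853) and Lats2 (0.38, adjusted p = 0.0551). For the combination against cisplatin they were Tead3 (0.22), Tead4 (-0.10) and Amotl2 (-0.24), and against AU-15330 Yap1 (0.23), Tead4 (0.33) and Amotl2 (0.31). The Lats2 difference between the effects of AU-15330 was -0.50 there (adjusted p = 0.120) and -0.74 in replicates 4 to 6. Ajuba passed in both splits in each of the 4 comparisons, with -0.65 and -0.89 for AU-15330 and 0.46 and 0.70 for cisplatin against DMSO.

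**Figure D3:**
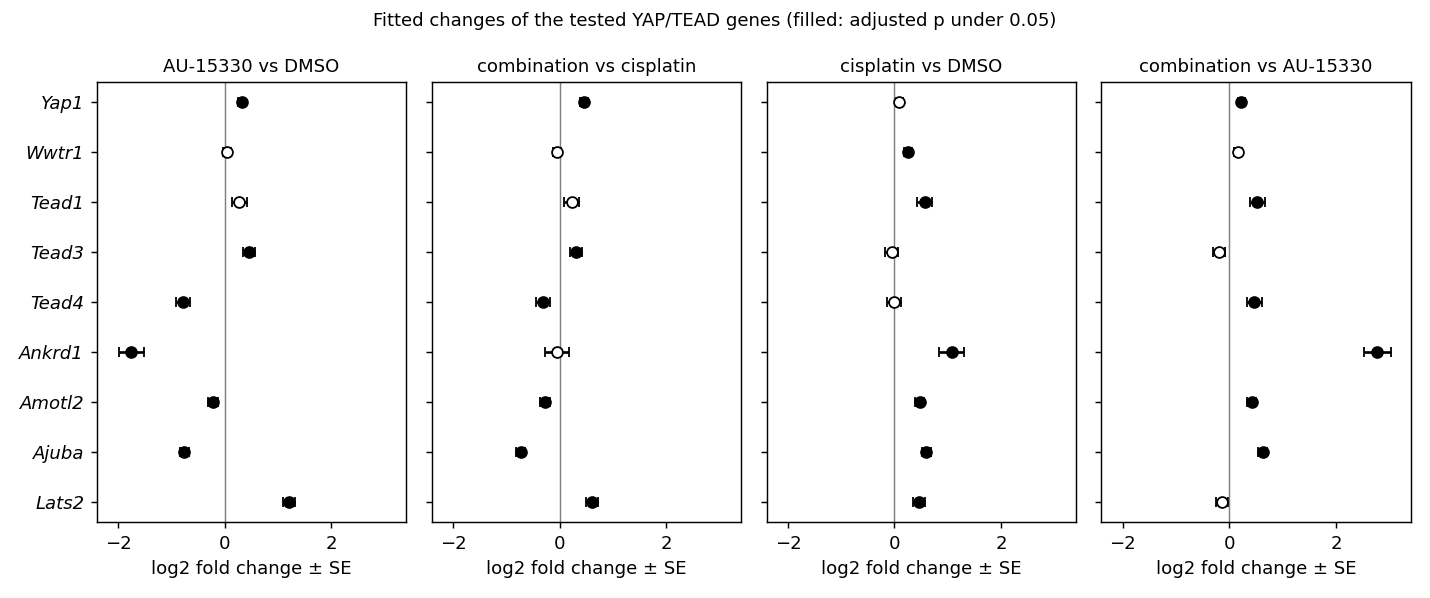
Log2 fold change of the 9 tested members in 4 comparisons, with bars of 1 SE and filled points where the adjusted p was under 0.05. In each cisplatin comparison, 6 filled points lie right of 0 and 0 lie left of it, and the Ankrd1 point in the combination against AU-15330 stands apart at 2.78.

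A list of 19 other known YAP/TEAD targets was read beside the members, of which 17 were tested (Nt5e and Igfbp3 were too low). With AU-15330 against DMSO 12 fell, 2 rose and 3 did not pass, where 37.2% of all tested genes fell and 36.2% rose, and the median log2 difference was -0.91 beside -0.0030 over all tested genes. On top of cisplatin 13 fell, 3 rose and 1 did not pass, where 32.7% of tested genes fell and 35.4% rose, with a median of -0.96 beside 0.04. With cisplatin alone 7 rose, 2 fell and 8 did not pass, where 26% of tested genes rose and 25.7% fell, with a median of 0.15 beside -0.0041. The 7 became 4 without replicate 5. The 2 that fell became 1 without any single replicate, and 0 with total-count scaling. In the combination against AU-15330 5 rose, 3 fell and 9 did not pass, where 22.2% of tested genes rose and 19.5% fell, with a median of 0.07 beside 0.0062.

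Ccn1 (CYR61), a secreted matricellular protein gene, ran from 186 to 442 CPM in DMSO (median 255), 28.6 to 59.0 CPM in AU-15330 (median 41.8), 170 to 268 CPM in cisplatin (median 181) and 46.0 to 73.6 CPM in combination libraries (median 52.2). Every library with AU-15330 lay below every library without it. Its log2 differences were -2.76 ± 0.206 for AU-15330 against DMSO (adjusted p = 4.34e-12) and -1.91 on top of cisplatin (adjusted p = 3.92e-09), and the second was smaller in size by 0.86 (adjusted p = 0.0174). So Ccn1 stayed low in the combination, where Ankrd1 did not. Ccn2 (CTGF), its close relative, fell by 1.02 on the log2 scale with AU-15330 (adjusted p = 4.37e-05) and by 0.96 on top of cisplatin (adjusted p = 0.000109), and rose by 0.80 with cisplatin (adjusted p = 0.00124), with medians of 202 CPM in DMSO, 107 in AU-15330, 390 in cisplatin and 203 in combination libraries. Axl, a receptor tyrosine kinase, fell by 0.91 with AU-15330 (adjusted p = 3.51e-10) and by 0.96 on top of cisplatin (adjusted p = 1.64e-10), and gave -0.15 with cisplatin (adjusted p = 0.147).

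By size, the list's strongest decreases with AU-15330 were Rbms3 and Nuak2. Rbms3, an RNA-binding protein gene, was counted 79 times over the 6 DMSO libraries and 4 times over the 6 AU-15330 libraries, a ratio of 21.4 with a 95% interval of 8.04 to 80.6 that covers counting error only. Nuak2, a kinase that feeds back on the Hippo pathway, fell from a median of 35.5 to 3.56 CPM, with a log2 difference of -3.17 ± 0.149 (adjusted p = 3.29e-16). It fell by 2.25 on top of cisplatin (adjusted p = 9.78e-14). The 2 that rose with AU-15330 were Fjx1 (0.95, adjusted p = 1.23e-08) and the stress-response gene Gadd45b (0.53). With cisplatin the largest increases were Ccdc80, a secreted matrix protein gene (0.94, adjusted p = 0.000784), and Rbms3 (0.85, adjusted p = 0.0186, lost without replicate 2 or 5), and the decreases were Ccn1 (-0.47, adjusted p = 0.0402) and F3 (-0.32, adjusted p = 0.0159).

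F3, which encodes tissue factor, the starter of blood clotting, showed a reversal of its own. Its median was 98.7 CPM in DMSO, 45.6 in AU-15330, 81.0 in cisplatin and 138 in combination libraries. AU-15330 lowered it by -1.24 ± 0.110 on the log2 scale when given alone (adjusted p = 1.34e-10) and raised it by 0.69 on top of cisplatin (adjusted p = 2.97e-06). The difference between these effects was 1.94 (adjusted p = 3.88e-10).

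**Figure D4:**
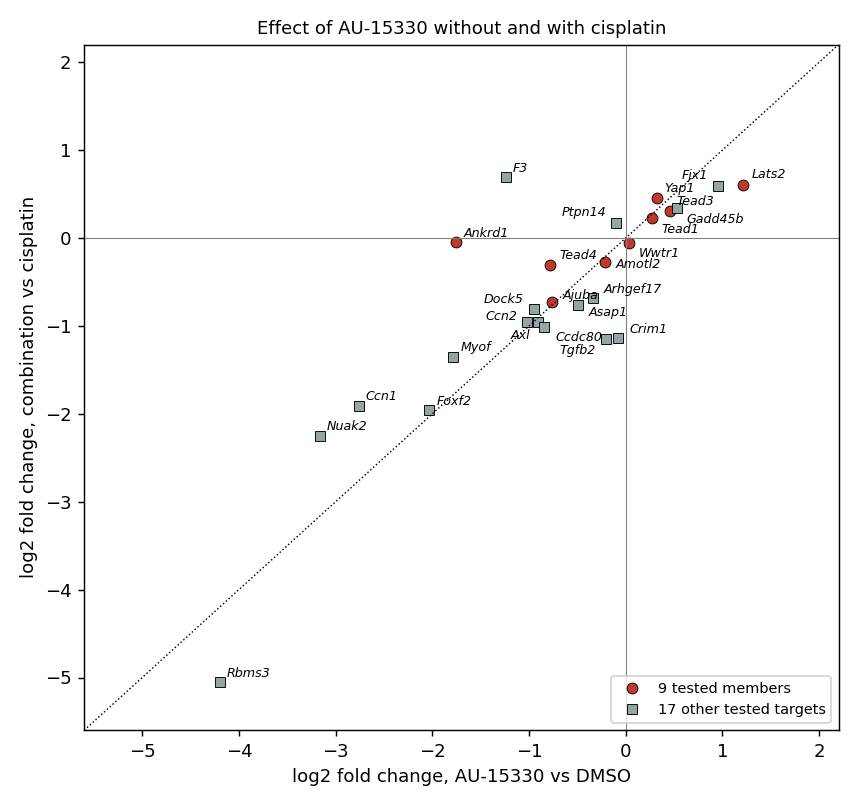
Log2 effect of AU-15330 on each member and each other target, alone against DMSO (horizontal axis) and on top of cisplatin (vertical axis), with the line of equal effects. Ajuba lies on the line at -0.76 and -0.73, Ankrd1 lies above it at -1.75 and -0.05, Lats2 lies below it at 1.21 and 0.61, and F3 lies above it at -1.24 and 0.69.

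Upstream regulators of the Hippo pathway numbered 20, of which 17 were tested (Wtip, Fat4 and Dchs1 were too low). With AU-15330 against DMSO 8 rose and 4 fell, where 36.2% of all tested genes rose and 37.2% fell, and the median log2 difference was 0.17 beside -0.0030 over all tested genes. On top of cisplatin 6 rose and 8 fell, where 35.4% of tested genes rose and 32.7% fell, with a median of 0.07 beside 0.04, and the 8 became 5 without replicate 5. With cisplatin 6 rose and 1 fell, where 26% of tested genes rose and 25.7% fell, with a median of 0.10 beside -0.0041. The 6 became 4 without replicate 5 and 8 without replicate 2, and the 1 became 2 without replicate 1. The shares that rose or fell with AU-15330, alone or on top of cisplatin, are not read as a result about these regulators. In the combination against AU-15330 3 rose and 0 fell by edgeR, where 2 were lower at an unadjusted p under 0.05 (Limd1 and Taok2), DESeq2 called 2, and the fit with a replicate block called 2. Among all tested genes 22.2% rose and 19.5% fell in that comparison. Amot, the founding angiomotin, rose most with AU-15330, from a median of 3.99 to 19.2 CPM, 2.17 ± 0.171 on the log2 scale (adjusted p = 1.44e-11). Wwc2, a KIBRA family scaffold, rose by 0.84 (adjusted p = 7.90e-11), and its relative Wwc1 (KIBRA) fell by 1.48 (adjusted p = 1.43e-14). Nf2 (merlin), which recruits LATS to the membrane, rose by 0.76 with AU-15330 (adjusted p = 4.81e-07) and by 0.66 on top of cisplatin (adjusted p = 5.26e-06). Map4k4, a kinase that can activate LATS, fell by 1.53 with AU-15330 (adjusted p = 7.32e-14) and rose by 0.51 with cisplatin (adjusted p = 4.34e-05). The kinase cofactor gene Mob1b rose with cisplatin by 0.51 (adjusted p = 0.00749, lost without replicate 5), and Stk3 (MST2) fell by 0.27 (adjusted p = 0.00156). Lats1, the paralog of Lats2, did not pass in either comparison, with log2 differences of 0.19 for AU-15330 (adjusted p = 0.182) and -0.15 for cisplatin (adjusted p = 0.342).

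Of 4 vestigial-like genes, whose proteins bind TEADs in place of YAP, Vgll2 and Vgll4 were tested, and Vgll1 and Vgll3 were too low. Vgll2 was nearly absent in DMSO libraries, with 0 to 1 counts each, and reached 19 to 33 counts in AU-15330, 0 to 3 in cisplatin and 9 to 19 in combination libraries. Over the group this was 164 counts with AU-15330 against 2 with DMSO, a ratio of 75.6 with a 95% interval of 20.6 to 629 that covers counting error only. Vgll4, which represses TEAD targets, rose by 0.37 with AU-15330 (adjusted p = 0.000104) and gave -0.02 on top of cisplatin (adjusted p = 0.841), and the difference between those effects was -0.39 (adjusted p = 0.00663). It rose by 0.19 with cisplatin (adjusted p = 0.0368), a call lost without replicate 2, 3, 4, 5 or 6.

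The genes whose log2 CPM most resembled that of Yap1 over the 24 libraries were Rnf19b (Pearson's r = 0.948), Map3k20 (0.941) and Mocos (0.941). For Ankrd1 they were Tinf2 (0.963), Smc3 (0.948) and Il18rap (0.942). These correlations are descriptions over libraries that share treatments and library depth.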

How the data were processed

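RNA-seq counts per gene symbol were deposited as whole numbers by the authors, in 48 columns of 2 sequencing lanes for each of 24 libraries (poly(A) selected, directional, single-end). Per the submitters' processing notes, STAR 2.7.1a, DESeq2 1.36.0 and mm10 were used. The counter, its strand setting and its annotation are not given in the sources used here. Lanes were summed. All columns matched a sample and 0 rows named no gene.

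Libraries were fitted together in edgeR 4.0.16 (R 4.3.3) with the quasi-likelihood test, TMM factors, filterByExpr, group means and 20 residual degrees of freedom. Of 25229 symbols, 12941 were tested, and p-values were adjusted by Benjamini-Hochberg over these, with a threshold of 0.05. Levels are CPM on TMM-scaled library sizes, and correlations used log2 CPM with a prior count of 2. Depth was 17592588 to 25260009 counts per library. The edgeR fit was tested on counts simulated with drug effects additive on the log scale, and the other steps were not tested in this way. Positions and exon lengths came from GENCODE vM21 (GRCm38), and promoter windows from RefSeq.

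The members and lists were chosen with earlier results of these data known. Named genes were all members, Ccn1, Ccn2, Axl, Nf2, Lats1 and Vgll4, the 2 largest called increases and decreases of each list with AU-15330 and with cisplatin, and for Yap1 and Ankrd1 the 3 genes of highest correlation. DESeq2 1.42.0, 2 other scalings, no filter, a replicate block and leaving out each replicate number in all groups were tried as alternatives, and 2 more (replicates 1 to 3 only, 4 to 6 only) were added after seeing the data. In the combination against AU-15330, the deviations of same-numbered libraries correlated over 0.1 in 6 of 6 pairs (0.101 to 0.483). This check held no differently numbered pairs, so it cannot tell whether the numbers pair the libraries one to one. The values given come from the fit without the block, and the block, with 15 residual degrees of freedom, changed no member call in that comparison. In the other comparisons 3 or 4 of 6 pairs had a correlation over 0.1.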

Additional observations from a re-analysis of the deposited data

Results flagged for a closer look

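The effect of AU-15330 on Ankrd1 differed between cells with and without cisplatin by 1.71 on the log2 scale in the test of the difference, and was 1.51 to 1.83 when any 1 replicate number was left out. The effect on Lats2 differed by -0.61, and by -0.72 to -0.54 without any 1 replicate number.

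In 36 groups of 6 libraries, 2 held a library far from the rest, where chance gives about 1 in 20 groups. For Wwtr1 in AU-15330, replicate 1 lay highest, with a gap of 0.753 of the group's range, and without replicate 1 in all groups the log2 difference from DMSO was -0.06 (adjusted p = 0.449, edgeR's quasi-likelihood test). For Amotl2 in cisplatin, replicate 1 lay lowest, with a gap of 0.66, and without replicate 1 the difference from DMSO was 0.50 (adjusted p = 1.96e-07).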

How the results depend on the processing

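DESeq2's Wald test, DESeq2's size factors in edgeR and no filter on low counts changed no call among the member results. Scaling by total counts moved the median of all tested genes to 0.13 for AU-15330 against DMSO and to 0.10 for the combination against cisplatin. With it 5 members rose with AU-15330 in place of 3, and the split of all genes was 5618 higher and 3973 lower, beside 4681 and 4816. For cisplatin against DMSO it was 3977 and 2529 beside 3360 and 3329, for the combination against cisplatin 5111 and 3877 beside 4579 and 4234, and for the difference between effects 1791 and 2506 beside 2313 and 2048.

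With the replicate block, 2 members in place of 1 were higher in the difference between the effects of AU-15330 (Tead4 was added), while over all genes the block raised that count from 2313 to 2789, and Tead1 passed for AU-15330 against DMSO. It changed no other member call. For 10 of 24 libraries, the mean correlation of deviations with libraries of the other groups was highest for their own number, among 6 numbers. Without any 1 replicate number, members higher in the difference between effects were 1 to 2.

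Among the member results, 13 lost their call in replicates 1 to 3 only and 0 in replicates 4 to 6 only, with equal numbers of libraries, while 2 and 3 gained one. In replicates 1 to 3 only, 3 members rose with cisplatin (6 with all), 1 fell in the combination against cisplatin (3 with all), 3 rose in the combination against AU-15330 (6 with all), and 0 were lower in the difference between effects (1 with all). Over all genes these counts were 2319 (3360 with all), 3582 (4234), 1483 (2873) and 932 (2048). In replicates 4 to 6 only, 1 member, Lats2, was lower in the combination against AU-15330 (0 with all), as were 2945 of all genes (2521 with all), and Tgfb2, one of the other targets, changed from -0.20 to 0.30 with AU-15330. The causes were not tested.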
